A study of Mus musculus with 3 samples.

Results

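Id1, Id2, Id3 and Id4 encode the inhibitors of DNA binding, and their signals were followed in PDL-L2, an immortalised cell line from mouse periodontal ligament, the soft tissue between tooth root and jaw bone. The members were all probe sets whose platform annotation names an Id gene as its single gene symbol, which gave 8 probe sets for 4 genes out of 18193 genes named this way on the array. Id1 and Id3 were each read by 1 probe set, and Id2 and Id4 by 3 each. Total RNA was hybridised to Affymetrix Mouse Genome arrays, with 1 array for each of 3 conditions. In the first condition, cells given a pool of non-targeting siRNAs (siCont) received vehicle. In the next, siCont cells received recombinant human BMP-2 (rhBMP-2) at 250 ng/ml, and in the last, cells given a pool of siRNAs against endoglin (siENG) received the same dose. Exposure lasted 12 h and began 48 h after transfection, and according to the labels the medium for BMP-2 held ascorbic acid and beta-glycerophosphate. A siENG condition with vehicle is not analysed here, so an effect of siENG on cells without BMP-2 cannot be told apart from an effect on the response to BMP-2. PDL-L2 is a single cell line, and since each condition has only 1 array, the conditions could not be tested against each other and no p-value is given.

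Id proteins carry a helix-loop-helix dimerisation domain but lack the basic region that contacts DNA. They pair with the ubiquitous E proteins and keep these from forming DNA-binding dimers with tissue-specific basic helix-loop-helix factors such as those of muscle, bone and nerve. Id1, Id2 and Id3 are textbook early targets of BMP, whose receptors phosphorylate Smad1, Smad5 and Smad9, while Id4 has been linked to the osteoblast lineage and to neural and mammary progenitors. Endoglin is an accessory receptor of the TGF-β family that binds ligand together with the signalling receptors.

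Before the Id genes, 3 properties of the arrays bear on their ratios. First, the array labelled siENG was brighter. Among probe sets past the signal limit of 23.0 (the median of all signals), the median log2 ratio of siENG BMP-2 to siCont BMP-2 was 0.21, and that of siCont BMP-2 to siCont vehicle was 0.01. The 18 probe sets for the bioB, bioC, bioD and cre controls were also brighter with siENG, in 18 of 18 cases and by a median log2 ratio of 0.20. Ratios are therefore given as deposited and, where called relative, after subtraction of the median shift. Second, the targeted gene went with its label: the brighter probe set of Eng had signals of 286 in siCont vehicle, 299 in siCont BMP-2 and 108 in siENG BMP-2. Finally, precision depends on signal. For want of replicates it is described by the robust SD of log2 ratios among probe sets of similar signal, in 20 bins, which also contains true differences and does not measure variation between cultures. A floor comes from 27 probe sets for Bacillus genes, which mouse cells do not have. The brightest of these read 13.1, and every Id signal lay above it.

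With BMP-2, all 4 Id genes were higher, and Id4 differed the most. Id4, the member linked to osteoblasts, gave in its brightest probe set (1423259_at) a signal of 83.6 for siCont with vehicle, 233 for siCont with BMP-2 and 127 for siENG with BMP-2. The ratio of BMP-2 to vehicle was 2.79, or 1.480 as log2, beside a robust SD of 0.26. A second probe set of Id4 (1450928_at) read 48.2, 134 and 65.4, which gave a log2 ratio of 1.478 and a robust SD of 0.29. The dimmest (1423260_at) had 42.3, 80.0 and 65.7, a log2 ratio of 0.92 with a robust SD of 0.34. The siCont BMP-2 array was the highest and the vehicle array the lowest for each of them.

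Id1, a restraint on differentiation in many lineages, was read by 1 bright probe set (1425895_a_at) with signals of 1296, 2501 and 2105 on the arrays in that order. Its log2 ratio of BMP-2 to vehicle was 0.95, with a robust SD of 0.11, so its ratio of 1.93 lay just below 2. Id2, which also binds the retinoblastoma protein, had signals of 1450.4, 2329.5 and 2215 in its brightest probe set (1422537_a_at), a log2 ratio of 0.68. Its other bright probe set (1435176_a_at) had 1569.7, 2420.2 and 1915 (0.62), and the dim one (1453596_at) had 93.8, 159 and 154 (0.76). The robust SD was 0.11 for the bright pair and 0.26 for the dim probe set, and across the 3 probe sets of Id2 the log2 ratio spanned only 0.14. Id3, a close relative of Id1, had signals of 3541, 5170.0 and 4576 in its probe set (1416630_at). Its log2 ratio of 0.55, with a robust SD of 0.11, was the smallest of the family. In 8 of 8 Id probe sets the vehicle array was lowest, the siENG array in between and the siCont BMP-2 array highest, an order found in 9.92% of the 24412 probe sets past the limit on any of the arrays.

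**Figure D1:**
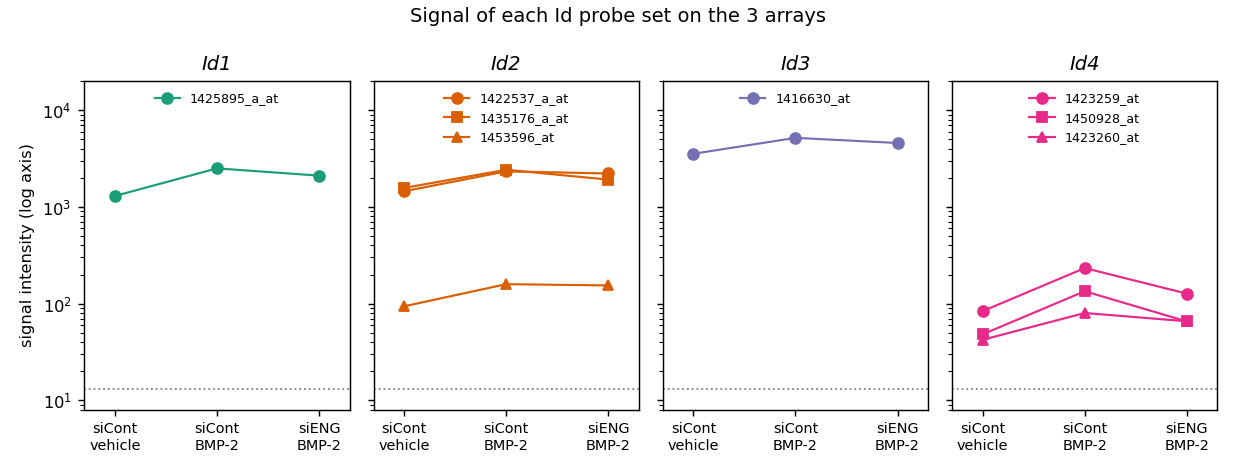
Signal intensity (vertical log axis) of the 8 Id probe sets on the 3 arrays (horizontal axis), with 1 panel per gene, 1 line per probe set and 1 array per condition. The dotted line is the highest Bacillus control signal, 13.1, and every line peaks at siCont BMP-2.

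Counted by genes, 1 of 4 Id genes, Id4, reached a ratio of 2 with BMP-2, where 1.8% of the 10810 genes past the signal limit did. Counted by probe sets it was 2 of 8, where 2.04% of 23632 did. All 4 Id genes and 8 of 8 Id probe sets were higher by any amount, as were 51.6% of genes and 51.3% of probe sets. The median log2 ratio of the 4 was 0.82, against 0.01 over all genes past the limit, whose middle range ran from -0.15 to 0.15. The 8 probe sets were read on the same arrays, so these counts describe the family and are no test.

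The size of the difference was read against genes of the same brightness, since ratios of dim probe sets scatter more. In the signal bin of the brightest Id4 probe set, which held 1003 genes, no other gene had a log2 ratio as high. In the bin of the bright Id probe sets, 1370 genes in all, 4 genes including Id1 itself had a log2 ratio at least as high as that of Id1, 12 as high as that of Id2 in its brightest probe set and 22 as high as that of Id3. The dim probe set of Id2 was matched or exceeded by 18 of 1003 genes and the dimmest of Id4 by 21 of 715. Where the higher signal was at least 152, the 75th percentile of all signals, Id4 ranked 9 from the top of 6723 genes, Id1 41, Id2 101 and Id3 169. With the lower limit, which admits many dim genes, the ranks were 74, 222, 426 and 598 of 10810. Id4 passed the limit of 152 only through the siCont BMP-2 array, at 233 against 83.6 with vehicle. Its rank of 9 is therefore partly set by the reading that it describes.

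Within the family, the order of the BMP-2 ratios was Id4, Id1, Id2 and Id3. Id4 exceeded Id1 by 0.53 in log2 ratio in the brightest probe sets, where the combined robust SD was 0.28, but its dimmest probe set, at 0.92, did not exceed Id1 at all. Id1 exceeded Id2 by 0.27 and Id3 by 0.40, with a combined robust SD of 0.16 for each. Id2 and Id3 differed by 0.14, less than the combined robust SD of 0.16, so these neighbours cannot be ordered. For the other pairs, a difference beyond this spread is no test of the order either, since each condition has 1 array.

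**Figure D2:**
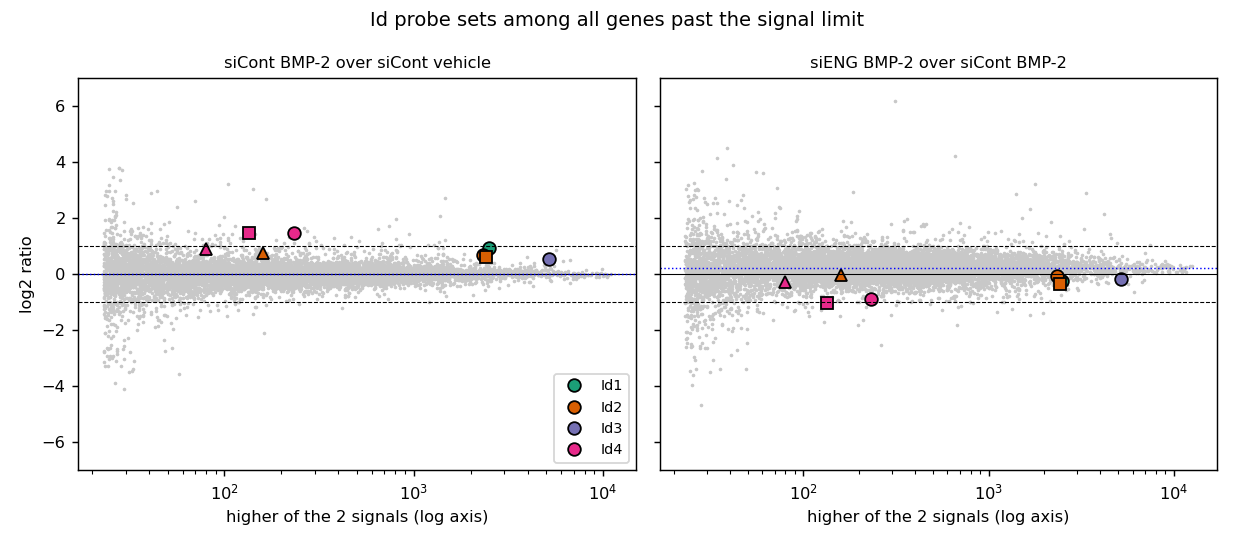
Log2 ratio (vertical axis) against the higher of the 2 signals compared (horizontal log axis) for siCont BMP-2 over siCont vehicle (left) and siENG BMP-2 over siCont BMP-2 (right). Grey points are genes past the signal limit of 23.0, each by its brightest probe set, coloured symbols are the 8 Id probe sets (circle, square and triangle in falling order of signal), dashed lines mark ratios of 2 and 0.5, and the blue dotted line is the median shift. On the left the Id probe sets lie along the upper edge of the grey points, and on the right 2 probe sets of Id4 lie along the lower edge.

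Since the members were higher together with BMP-2, the windows just upstream of their transcription starts are shown. RefSeq sequences of GRCm38.p6 were matched for 3 of the 4 genes, Id2, Id3 and Id4, and each window holds the 250 bases before the start, 5′ to 3′ on the strand of the gene. Capitals mark every match, on either strand, to GGCGCC or GGAGCC (GC-rich Smad motifs), CANNTG (the E-box bound by basic helix-loop-helix dimers), CCAAT (bound by NF-Y), TATAAA (the TATA box) or TGACG (part of the cyclic AMP response element). No 2 of the matches shown overlap. The windows lie at chr12:25096093-25096342 on the minus strand for Id2, chr4:136143572-136143821 on the plus strand for Id3 and chr13:48260866-48261115 on the plus strand for Id4.
Id2: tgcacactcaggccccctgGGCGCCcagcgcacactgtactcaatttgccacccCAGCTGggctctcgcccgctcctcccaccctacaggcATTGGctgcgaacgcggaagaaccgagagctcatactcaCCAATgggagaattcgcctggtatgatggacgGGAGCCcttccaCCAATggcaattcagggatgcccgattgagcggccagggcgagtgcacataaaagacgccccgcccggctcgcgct
Id3: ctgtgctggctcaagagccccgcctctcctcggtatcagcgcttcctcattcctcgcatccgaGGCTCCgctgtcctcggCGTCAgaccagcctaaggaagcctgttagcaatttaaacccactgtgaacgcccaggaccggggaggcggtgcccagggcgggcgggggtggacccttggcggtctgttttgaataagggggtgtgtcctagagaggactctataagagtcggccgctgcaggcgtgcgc
Id4: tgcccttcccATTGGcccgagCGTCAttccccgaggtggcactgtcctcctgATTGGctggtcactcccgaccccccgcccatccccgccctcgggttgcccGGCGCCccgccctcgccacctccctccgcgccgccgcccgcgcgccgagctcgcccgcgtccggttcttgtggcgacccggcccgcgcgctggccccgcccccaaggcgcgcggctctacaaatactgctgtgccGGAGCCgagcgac

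GGAGCC was found in each of the 3 windows, once each, and in 26.0% of 32851 windows of this length over all genes of the table. GGCGCC was found in the windows of Id2 and Id4, against 9.59% of all windows. The E-box motif occurred in the window of Id2 only, although 66.2% of all windows hold one. CCAAT occurred 3 times for Id2 and 2 times for Id4, against 33.8% of windows with any, and TGACG in the windows of Id3 and Id4, against 17.8%. TATAAA matched in none of the 3, against 12.4%. The windows were rich in G and C, at 62.8% for Id2, 62.8% for Id3 and 75.6% for Id4, where the median of all windows was 52.4%, and GC-rich motifs match more often in such sequence. The matches are descriptions of these letters and not measured sites.

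With endoglin knocked down, all 4 Id genes were lower than in siCont cells given the same BMP-2, and Id4 again differed the most. As deposited, the log2 ratio of siENG to siCont for Id4 was -0.88 in the brightest probe set, -1.04 in the second and -0.28 in the dimmest. Relative to all probe sets past the limit the values were -1.09, -1.25 and -0.49, with robust SDs of 0.34, 0.40 and 0.40. Both brighter probe sets thus lay more than 3 robust SDs below the median of the arrays, at -3.19 and -3.14, and the dimmest lay at -1.24. In the signal bin of the brightest probe set, 5 of 1199 genes, Id4 included, had a log2 ratio as low.

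The differences of Id1, Id2 and Id3 were smaller. The log2 ratio of siENG to siCont was -0.25 for Id1, and -0.46 relative to all probe sets, with a robust SD of 0.22. For Id3 it was -0.18 as deposited and -0.39 relative. The probe sets of Id2 did not give 1 value: the brightest stood at -0.07 (-0.28 relative), the other bright one at -0.34 (-0.55 relative) and the dim one at -0.04 (-0.25 relative). In units of the robust SD, the relative ratios were -2.06 for Id1, -1.74 for Id3 and -1.27, -2.46 and -0.74 for the probe sets of Id2. Of 1370 genes in the bright bin, 71 had a log2 ratio at or below that of Id1, 110 at or below that of Id3, and 178 and 44 at or below those of the bright probe sets of Id2. In the brightest probe sets, Id4 was lower than each of the other Id genes by 0.63 to 0.81 in log2 ratio, beyond the combined robust SD of 0.41, while differences among Id1, Id2 and Id3 stayed within 0.31. The dimmest probe set of Id4, at -0.28, did not stand apart from Id1 at -0.25 and lay above the second bright probe set of Id2 at -0.34.

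By the ratio of 0.5 or less, 0 of 4 Id genes qualified as deposited, where 1.66% of 10854 genes did. Relative to all probe sets 1 of 4 did, Id4 at a ratio of 0.470, where 2.7% of genes did. Among probe sets, 1 of 8 reached it as deposited, the second of Id4 at 0.487, against 1.75%. Lower by any amount as deposited were 4 of 4 Id genes and 8 of 8 Id probe sets, against 24.8% of all genes and 29% of all probe sets. The siCont BMP-2 array is the upper reading in the first comparison and the lower part of the ratio in this one, so a high reading there would enter both with opposite sign.

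**Figure D3:**
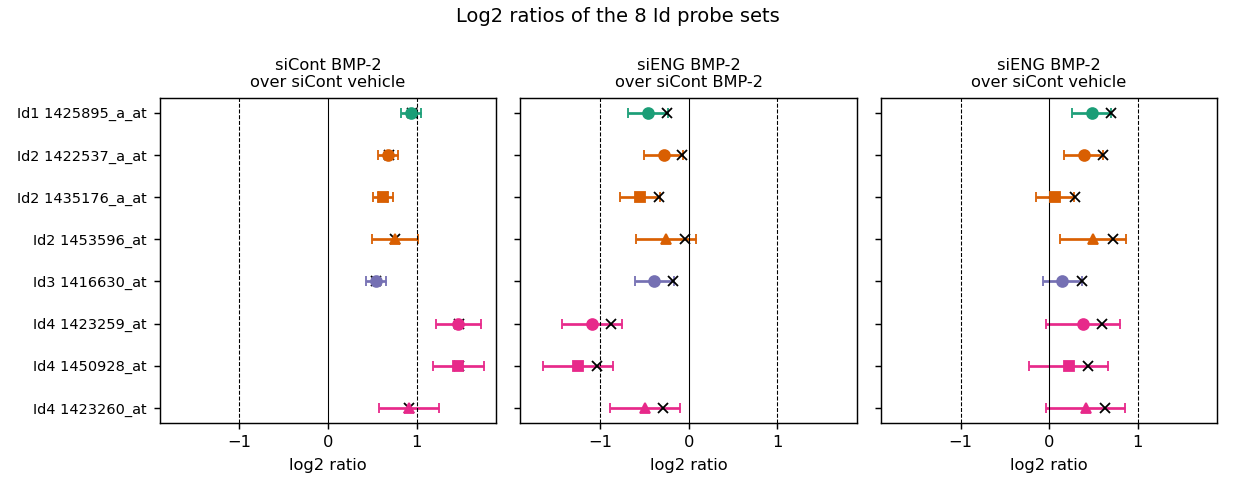
Log2 ratios (horizontal axis) of the 8 Id probe sets in the 3 comparisons of arrays. Coloured symbols have the median shift subtracted and carry bars of 1 robust SD, black crosses are ratios as deposited and dashed lines mark ratios of 2 and 0.5. The 2 brighter Id4 probe sets are the farthest from 0 in the left and middle panels, and in the right panel all 8 symbols lie between 0.07 and 0.50.

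Compared with siCont cells given vehicle, siENG cells given BMP-2 still had higher signals for 4 of 4 Id genes and 8 of 8 probe sets, as they had for 75.4% of all genes and 71% of all probe sets. The log2 ratio was 0.70 for Id1, 0.61 for Id2 in its brightest probe set, 0.37 for Id3 and 0.60 for Id4, and relative to all probe sets 0.48, 0.39, 0.15 and 0.38. The robust SD was 0.22 for the bright probe sets and 0.42 for the brightest of Id4. Id1, the brightest probe set of Id2 and the dim one of Id2 (0.50 relative, robust SD 0.37) were thus beyond 1 robust SD after allowance for the brighter array, while Id3 and all 3 probe sets of Id4, at 0.38, 0.22 and 0.41, were within it. The second bright probe set of Id2 was at 0.07. No Id gene reached a ratio of 2 in this comparison, where 3.99% of 10847 genes did.

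As a share of the log2 difference between siCont BMP-2 and vehicle, the siENG array kept 73.8% for Id1, 67.7% for Id3 and 40.6%, 29.8% and 69.1% for the probe sets of Id4. For Id2 the shares were 89.3%, 45.9% and 94.3%. After subtraction of the median shift in each comparison they were 50.9% for Id1, 27.6% for Id3, 57.6%, 10.6% and 65.9% for Id2 and 25.8%, 14.9% and 45.4% for Id4. The shares of Id2 and Id4 therefore overlapped when all probe sets were considered. Each share rests on the same 3 arrays, carries no error of its own and moves with the scaling of the siENG array.

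The 3 probe sets of Id4 are all annotated to the same sequence entry, so they are repeated readings of 1 sequence source in 1 RNA sample and not replicates. Their log2 ratios spanned 0.56 with BMP-2 and 0.75 with siENG. Spans of this size are not rare: among 1426 genes with exactly 3 probe sets past the limit, 27.1% spanned at least as much in the first comparison, and among 1429 genes 21.0% did in the second. For Id2, whose probe sets are annotated to 3 different entries, the spans of 0.14 and 0.29 were matched or exceeded by 84.0% and 65.3% of such genes. The median span over these genes was 0.33 with BMP-2 and 0.41 with siENG.

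The genes whose pattern was most like that of each Id gene were found by the distance between their 2 log2 ratios (BMP-2 over vehicle, and siENG over siCont with BMP-2), among 7181 genes with a signal of at least 152 on 1 of the 3 arrays. Nearest to Id1 were Klf4, a zinc finger factor of pluripotent and epithelial cells, at a distance of 0.03, Zbtb1 at 0.09 and the stem cell factor Sox2 at 0.10. Klf4 had signals of 484, 953 and 792 on the vehicle, siCont BMP-2 and siENG BMP-2 arrays. Nearest to Id2 were Pde2a, a cyclic nucleotide phosphodiesterase, at 0.02, the collagen VI chain Col6a3 at 0.04 and the matrix glycoprotein tenascin C (Tnc) at 0.05. Nearest to Id3 were Zfp365 at 0.01, the receptor phosphatase Ptprm at 0.02 and the Wnt receptor Fzd1 at 0.02.

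Id4 had sparser surroundings. Its nearest gene was the unnamed transcript C730049O14Rik, with signals of 80.9, 223 and 127, at a distance of 0.07. Tmem268 followed at 0.14, with signals of 210.5, 648 and 358, and then Dpysl3, a cytoskeletal protein of growing neurites, at 0.26 with 628, 1468 and 797. Within a distance of 0.1 there was 1 gene for Id4, 4 for Id1, 12 for Id2 and 30 for Id3. Distances are over 3 arrays with the siCont BMP-2 array shared by both ratios, and other Id genes were not among the 3 nearest. Of the 7181 genes compared, Id2 was 40 from the top of the list of Id1, and Id3 39 from the top of that of Id2. In the list of Id4, Id1 was 46 from the top, Id2 132 and Id3 159. Id4 itself was farther down, at 860, 6490 and 6682 in the lists of Id1, Id2 and Id3.

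The E proteins, the dimerisation partners that Id proteins sequester, were nearly level across the arrays. In the same order of arrays, Tcf3 had signals of 562, 509 and 583, Tcf4 had 506, 471 and 472, and Tcf12 had 1225.5, 1253 and 1442. Their median log2 ratio with BMP-2 was -0.10, and 0 of 3 reached a ratio of 2 or of 0.5 in either comparison. Tissue-specific basic helix-loop-helix factors were mostly dim, and 8 of 32 on the array were past the limit with BMP-2. None of the 8 reached either ratio there, with a median log2 ratio of 0.19. With siENG 1 of 8 was at 0.5 or less, Tcf15, a factor of paraxial mesoderm, with signals of 14.6, 24.1 and 12.0. Its lowest reading was no brighter than the Bacillus probe sets, at up to 13.1. Tcf15 and Hand1 passed the limit in both comparisons only through the siCont BMP-2 array, where they are highest. With siENG, Mesp1 also passed only through that array. The median of 0.19 and the count of 1 of 8 are therefore partly set by the readings that they describe. The factors Twist1 (142, 141 and 145) and Twist2 (200.1, 213 and 203) were level.

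Repressors of the Hes and Hey families and the related Bhlhe factors, which share the helix-loop-helix fold, included larger differences. Of 5 past the limit with BMP-2, 2 reached a ratio of 2, where 1.8% of all genes did, Hey1, an effector of Notch and BMP, with signals of 25.6, 167 and 131, and Bhlhe40, a repressor of the circadian clock, with 329, 671 and 1533. With siENG, 2 of 7 reached a ratio of 2, as 4.04% of all genes did, Bhlhe40 (log2 ratio 1.19, 0.98 relative) and Hey2 (signals of 6.6, 11.6 and 27.2). Both siCont readings of Hey2 were no brighter than the Bacillus probe sets, so its ratio is taken against a reading not above background. Hey2, Heyl and Bhlhe41 passed the limit in this comparison only through the siENG array, where they are high. Relative to all probe sets 1 of 7 reached a ratio of 2, Hey2, where 2.32% of all genes did. Bhlhe40 was thus higher again with siENG, where the Id genes were lower. Hes1, a Notch effector, had signals of 105, 189.5 and 214. Other proteins known to bind or stabilise Id proteins showed 0 of 10 at either ratio with BMP-2 and 0 of 9 with siENG. Among them the retinoblastoma gene Rb1 had signals of 248, 217 and 361, and Cops5, a subunit of the COP9 signalosome, 1508.5, 1482 and 2288.

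**Figure D4:**
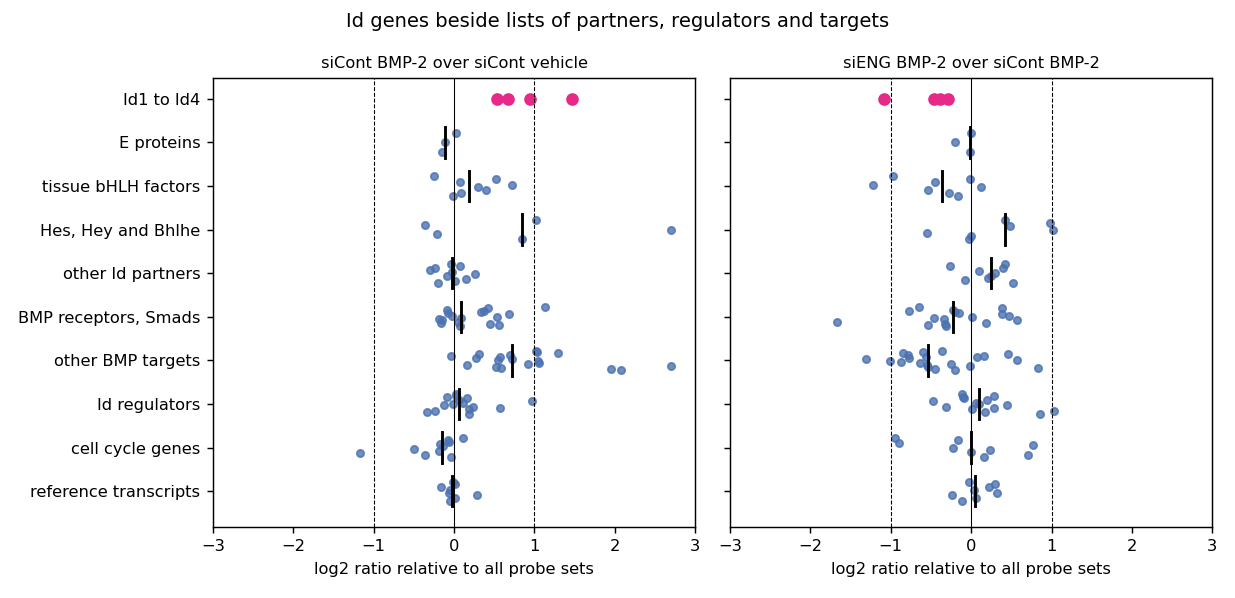
Log2 ratio with the median shift subtracted (horizontal axis) for Id1 to Id4 (pink, brightest probe sets) and for the members past the signal limit of 9 other gene lists (blue points, 1 per gene, with a black bar at the list median), for siCont BMP-2 over siCont vehicle (left) and siENG BMP-2 over siCont BMP-2 (right). Dashed lines mark ratios of 2 and 0.5. The other BMP targets have a median of 0.72 on the left and -0.54 on the right, and the E proteins stay near 0 in both. The median of 0.72 is the value of Hamp, which passed the limit only through the siCont BMP-2 array.

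On the input side, 11 of 17 receptors and Smads of the BMP branch past the limit were higher with BMP-2, against 51.6% of all genes. Of the 17, 1 reached a ratio of 2, Skil, a repressor of Smad signalling, with signals of 621, 1367 and 1009.8, and the median log2 ratio was 0.09. The type I receptor Acvr1 had signals of 252, 374 and 299, the type II receptor Bmpr2 1043, 1431 and 1318 and Smad1 505, 738 and 858. Their log2 ratios with BMP-2 were 0.57, 0.46 and 0.55, with robust SDs of 0.19, 0.11 and 0.15, so that of Smad1 was as large as that of Id3. With siENG, Eng was the 1 of 17 at a ratio of 0.5 or less, and 0 reached 2.

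Other genes listed as responding to BMP were also mostly higher with BMP-2. Which Smads acted on them was not tested. Of 19 past the limit, 18 were higher and 8 reached a ratio of 2, against 51.6% and 1.8% of all genes, with a median log2 ratio of 0.73 against 0.82 for the 4 Id genes. The list was chosen with earlier results of these data known, so these counts are a description and no test. Hamp passed the limit only through the BMP-2 array, with 15.6 for vehicle and 25.8 for siCont BMP-2. It is counted among the 18, and the list median of 0.73 is the value of Hamp itself. The inhibitory Smad6 had signals of 325, 1382 and 1388 and Smad7 207, 806 and 685. The homeobox genes of the jaw Dlx1 and Dlx2 had 400, 836 and 529, and 579, 1196 and 688. Junb, a subunit of AP-1, had 154, 380.3 and 244, the activin antagonist Fst 414, 852 and 649.5 and Pmepa1, a feedback inhibitor, 416, 847 and 761. Hey1, given above, was the eighth.

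With siENG, 14 of 21 of these BMP-responsive genes past the limit were lower, against 24.8% of all genes, and their median log2 ratio was -0.33 as deposited and -0.54 relative, against -0.21 and -0.42 for the Id genes. Of the 21, 1 was at 0.5 or less as deposited, where 1.66% of all genes were, the osteoblast transcription factor Sp7, with signals of 38.4, 56.5 and 26.3. Relative to all probe sets it was 2 of 21, where 2.7% of all genes were, Sp7 at a log2 ratio of -1.31 and Dlx2 at -1.01. Bambi, a decoy receptor, was the 1 gene at a ratio of 2 or more, from 13.5 to 27.7, where 4.04% of all genes were. It passed the limit only through the siENG array, and its reading of 13.5 is close to the highest Bacillus signal, 13.1. Relative to all probe sets Bambi fell short of that ratio. Smad6 stood at a relative log2 ratio of -0.20, Smad7 at -0.44 and Dlx1 at -0.87, so Id1 to Id3 lay in the range of these. Id4 at -1.09 lay between Sp7 and Dlx2.

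Of the regulators of Id transcription outside the Smads, 0 of 15 reached either ratio with BMP-2. Klf4, given above as nearest to Id1, came closest, with a log2 ratio of 0.98 and a robust SD of 0.15, and the median of the list was 0.07. With siENG, 2 of 15 reached a ratio of 2 as deposited, where 4.04% of all genes did. Egr1, an immediate early factor reported to activate Id genes, had signals of 552, 629.8 and 1319, and Atf3, a stress factor known to repress Id1, had 39.1, 33.2 and 78.3. Relative to all probe sets Atf3 alone was at that ratio, with a log2 ratio of 1.03 against 0.86 for Egr1, where 2.32% of all genes were. Cell cycle genes held in check or released by Id proteins showed 0 of 10 at a ratio of 2 with BMP-2 and 1 of 10 at 0.5 or less, where 1.57% of all genes were, the inhibitor Cdkn1c, from 27.7 to 12.4, the latter no brighter than the Bacillus probe sets. Cdkn1c passed the limit in this comparison only through the vehicle array. The inhibitors Cdkn2a (1900.5, 1678 and 1941) and Cdkn2b (1369, 971 and 1322), which Id proteins are known to restrain, had log2 ratios with BMP-2 of -0.18 and -0.50, where the robust SD was 0.11. The inhibitor Cdkn1a, on the same list, was level at -0.03. Of the 10 listed genes, 9 were lower by any amount with BMP-2, against 48.2% of all genes, and these included the cyclin Ccnd1 at -0.17. An effect of Id proteins on these genes was not tested.

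A list of osteoblast genes together with Hes1 and Hey2 had 9 members on the array. Of 6 past the limit with BMP-2, 1 reached a ratio of 2, where 1.8% of all genes did. This was the phosphatase Alpl, with signals of 20.1, 44.8 and 35.2. Collagen I (Col1a1) had 3408, 3278 and 4361. With siENG, 1 of 7 was at 0.5 or less, Sp7, where 1.66% of all genes were. At 2 or more was also 1 of 7, Hey2, where 4.04% of all genes were, and the ratio of Hey2 rests on a reading not above the Bacillus probe sets. Hey2 passed the limit in this comparison only through the siENG array.

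The label of the cells was checked against marker genes. Of 10 markers of periodontal ligament and fibroblasts 7 were past the limit, with periostin (Postn) at 4428, 5491 and 4614, while Aspn, Tnmd and Thy1 stayed within the range of the Bacillus controls on all arrays. Markers of other cells stayed below 152 on all arrays, except the adipocyte marker Fabp4. Of 6 endothelial markers 1 exceeded the Bacillus controls, Kdr, at 4.2 with vehicle and 25.8 with BMP-2. Of 5 leukocyte markers 3 did, with a summed signal of 132, 117 and 211 and Ptprc at 8.1 or less. Of 6 epithelial markers 6 exceeded the Bacillus controls on at least 1 array, with a summed signal of 110, 111 and 61.7. Of 5 muscle markers 3 did, with a summed signal of 135, 96.4 and 161, and of 3 adipocyte markers only Fabp4 did, with 261, 397 and 252. Fabp4 was thus brighter than Id4 on each array and, like the Id genes, highest with siCont and BMP-2. The part of these readings in the Id ratios was not tested. The 8 reference transcripts on the array had a median log2 ratio of -0.02 with BMP-2 and 0.26 with siENG, or 0.05 relative to all probe sets, and none reached a ratio of 2. The farthest among them were B2m, at 4032.5, 3872 and 5611, and Pgk1, at 5005.5, 5079 and 7212.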

How the data were processed

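Each of the 3 conditions gave 1 Affymetrix array of total RNA. For every probe set the authors deposited a signal intensity on a linear scale. GCOS 1.4 appears in the submitters' processing notes. Neither the signal algorithm nor the scaling is given in the sources used here. Of 45101 probe sets, 64 controls were left out of the comparisons. Names came from the platform annotation, updated by gene identifier through RefSeq (GRCm38.p6). It gave 34958 probe sets a single symbol, 932 more than 1 and 9211 no symbol. A gene was represented by its probe set of highest mean log2 signal.

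Log2 ratios were formed on the signals as deposited. A signal of 0, found 3 times on the vehicle array and 1 time on the siCont BMP-2 array, was set to 0.1. Comparisons used genes with at least 1 of both signals at or above 23.0. The robust SD was 1.4826 times the median absolute deviation in 20 bins of mean log2 signal over all probe sets. Without replicates no test was made, and the number of arrays limits the precision. Ratios of 2 or more and of 0.5 or less were counted.

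The Id genes, the gene lists, the motifs and the rule for named genes were chosen with earlier results of these data known. By that rule, list members past a ratio of 2 or 0.5 were named, or otherwise the 2 largest differences, with all Id probe sets, Eng and the 3 nearest patterns of each Id gene. Other genes given as examples were chosen after their values were seen. Listed genes without a probe set of their own symbol are not analysed here. Promoter windows came from the RefSeq table of the same build.

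Alternatives were quantile normalization, median and lowess centring (fraction 0.3), scaling to the 2% trimmed mean, the mean or median over probe sets, a pseudocount of 16, no signal limit and a limit of 152. The software was Python 3.11.15, pandas 2.3.3, numpy 2.4.6, statsmodels 0.14.6 and matplotlib 3.10.9.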

Additional observations from a re-analysis of the deposited data

How the results depend on the processing

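Of 161 values of 18 results recomputed under 9 alternatives, 0 changed direction and 140 moved by less than the robust SD or kept their count. The 140 include values that could not move. A changed signal limit leaves the ratio of a kept gene as it was, and the mean or median over probe sets leaves Id1 and Id3, with 1 probe set each, unchanged. Such values could not change direction either, and the counts have no direction to change. The count of Id genes at a ratio of 0.5 or less with siENG went from 0 to 1, Id4, under quantile normalization, median centring, lowess centring, 2% trimmed mean scaling and the median over probe sets. The median log2 ratio of the 4 Id genes for siENG BMP-2 over siCont vehicle, 0.61 as deposited, was 0.37 under quantile normalization, 0.38 under median centring, 0.38 under lowess centring and 0.37 under 2% trimmed mean scaling, 4 settings that subtract or rescale the brighter siENG array. Under these Id1, Id2 and Id3 were as low as 0.45, 0.35 and 0.12 in that comparison. For Id4 the log2 ratio with BMP-2 ran from 1.29 to 1.49 and with siENG from -1.09 to -0.73, and the count of 1 Id gene at a ratio of 2 with BMP-2 held under all 9. With the limit at the 75th percentile Id4 gave no value for siENG BMP-2 over siCont vehicle, since both signals lie under it. No paired analysis was possible because each condition has 1 array, and no replicate could be left out. The dim probe sets of Id2 and Id4 carry the widest robust SDs, so their ratios are the least precise.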
